A study of Mus musculus with 21 samples.

Results

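A set of 8 genes that encode epigenetic regulators and are known as mutation targets in juvenile myelomonocytic leukemia (JMML) was followed at the RNA level in a mouse model of this disease. The genes were Ezh2, Suz12, Eed, Asxl1, Kdm6a, Dnmt3a, Tet2 and Setbp1, chosen by symbol and not by their values. Earlier results of these data were known when they were chosen. All 8 were found among the 45706 gene identifiers of the count files. All 8 also passed the filter on low counts, which left 19555 genes. The levels described are RNA levels, and no mutation of any of these genes was examined here.

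RNA was sequenced from 21 libraries of 3 cell fractions of mice. LSK cells, lineage-negative cells of the bone marrow (BM) that carry Sca1 and cKit, hold the stem and early progenitor cells. CD11b+ cells of the spleen and of the BM, isolated with an antibody to this integrin, hold monocytes, macrophages and granulocytes. Each fraction had 2 libraries labelled MxCre, 2 labelled Ptpn11D61Y/+ and 3 labelled S3. MxCre mice carry Cre recombinase under the interferon-inducible Mx promoter, which is active in blood-forming and also in other cells, without the mutant allele. Ptpn11D61Y/+ mice carry the activating D61Y allele of the phosphatase SHP2 behind a Neo-Stop cassette and have no Cre, so that the allele should stay silent. The study likens them to a heterozygous knock-out of Ptpn11, the gene of SHP2, and gives MxCre mice normal Ptpn11 levels. The control genotypes therefore also differ in working Ptpn11 alleles. S3 mice carry both and were terminally ill, at disease stage 3, when the cells were taken. All mice of the study received poly I:C, which induces Cre, so the interferon stimulus was shared by controls and diseased mice. The S3 libraries carry the mouse numbers 540, 768 and 815 in LSK cells and 540, 640 and 815 in both CD11b+ fractions. The control libraries carry only a replicate number. The study's methods speak of separate mice for CD11b+ cells of S3 and MxCre mice, but the labels tie no control library to a mouse, so the p-values measure the spread between these libraries, which may in part be technical.

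The 8 gene products act on chromatin. EZH2, SUZ12 and EED form the core of Polycomb repressive complex 2 (PRC2), which methylates lysine 27 of histone H3 and keeps developmental genes silent. EZH2 is the methyltransferase, SUZ12 holds the complex together, and EED binds the methylated histone and stimulates the enzyme. KDM6A (UTX) removes the same mark and belongs to the MLL3/4 complexes of enhancers. ASXL1 is a cofactor of the deubiquitinase BAP1 in the PR-DUB complex, which reverses the histone H2A mark set by PRC1. DNMT3A sets new DNA methylation, and TET2 oxidizes it toward removal. SETBP1 binds SET, an inhibitor of the phosphatase PP2A. In the blood system these factors are known for balancing self-renewal of stem cells against differentiation, and EZH2 is also known as a target of the E2F factors that drive the cell cycle.

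Depth was high in every library, from 34992610 to 104509425 counts with a median of 69421661, but library complexity was not even. LSK libraries held between 22718 and 24220 genes with at least 1 count. Among the CD11b+ libraries, BM MxCre replicate 1 (14885 genes), BM S3 815 (14761 genes) and spleen MxCre replicate 1 (14641 genes) stayed below 15000, while the others ranged from 17493 to 22865. The labelled fractions carried their defining markers: all 8 myeloid markers, Itgam (CD11b) among them, were called higher in both CD11b+ fractions than in LSK cells, and 9 of 10 stem and progenitor markers were called lower in both. The exception was Ly6a (Sca1), which interferon also induces. CD11b+ BM libraries also carried much erythroid RNA, with the 13 erythroid markers summing to between 14892 and 224611 CPM (counts scaled by the adjusted library size), mostly hemoglobin. In bulk libraries, fewer cells of a type and less RNA per cell cannot be told apart.

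A pair of BM CD11b+ libraries stood apart in cell composition. BM MxCre replicate 1 had the lowest sum of 18 proliferation genes in the series (624 CPM, against 4570 CPM in BM MxCre replicate 2) and the highest sum of 10 monocyte and macrophage markers (11876 CPM, against 1548 CPM), with the macrophage gene C1qa as its most abundant marker (6283 CPM). BM S3 640 had 2117 CPM of proliferation genes and the lowest sum of mature neutrophil markers in BM (28798 CPM, against 96707 to 142669 CPM in the other 6). Differences from BM CD11b+ cells are therefore also given without these 2 libraries.

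**Figure D1:**
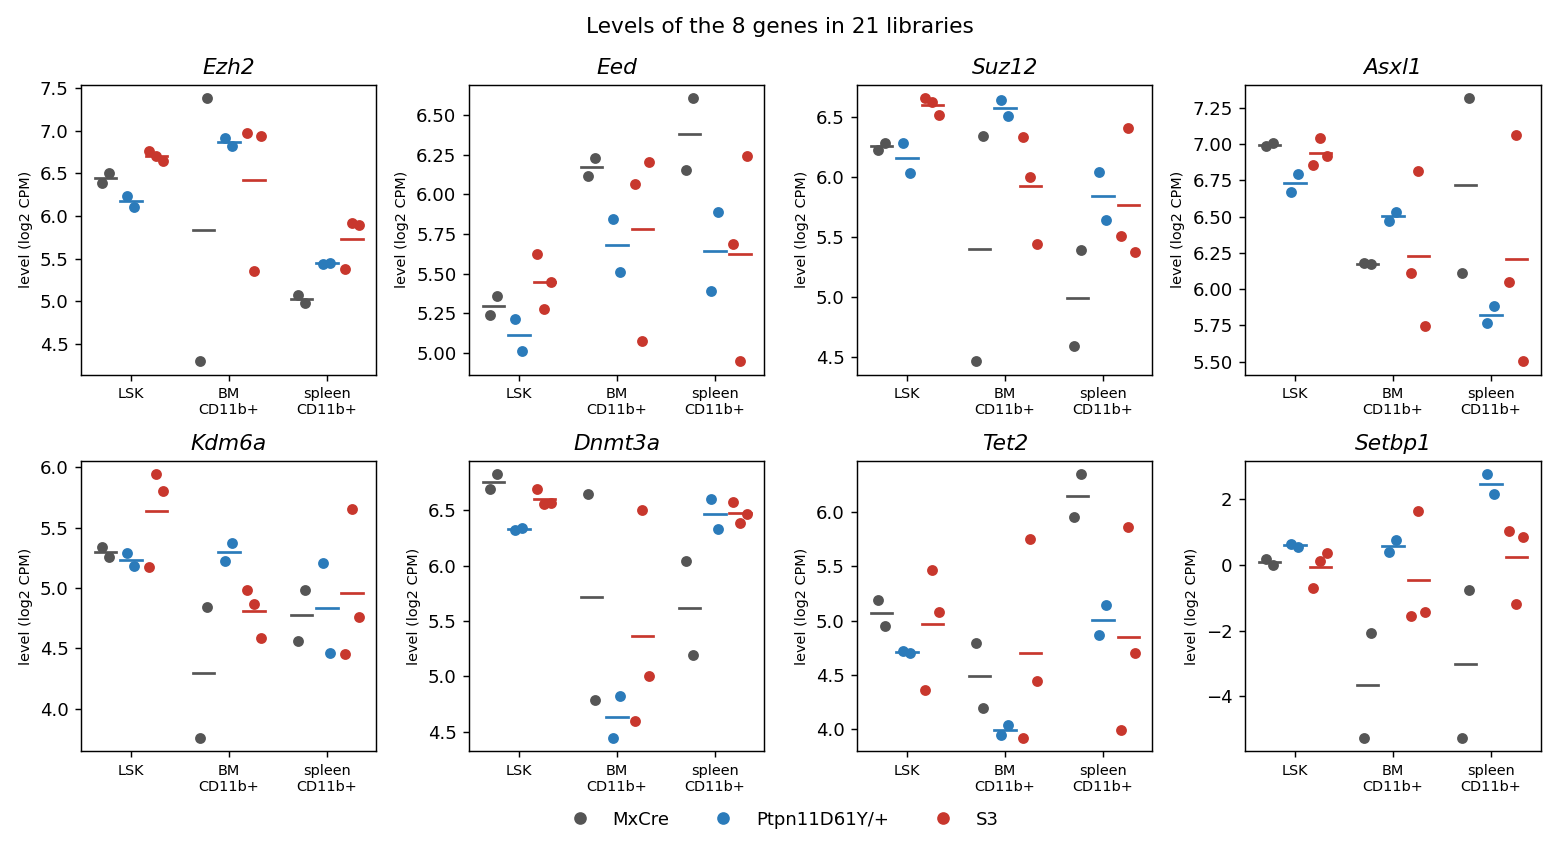
Level of each of the 8 genes in each of the 21 libraries, as log2 CPM (y axis, with its own range in each panel), by fraction (x axis) and genotype (colour), with a point for each library and a short line for the group mean. Ezh2 lay between 6.11 and 6.76 in LSK cells and between 4.98 and 5.92 in spleen CD11b+ cells, and the lowest Setbp1 points, at -5.26, are libraries with 0 counts, placed by the prior count.

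Levels were compared between genes per kilobase of merged exon. In LSK cells Asxl1 had the highest median of the 8 genes (16.3 CPM per kb, range 13.7 to 17.7 over 7 libraries). Suz12 followed with 15.8 (13.3 to 20.5) and Ezh2 with 13.6 (10.3 to 16.2) CPM per kb. These 3 ranges overlapped, so their order was not separated by the spread between libraries. Eed had 10.1 (8.42 to 12.9) CPM per kb, and Dnmt3a 5.71 (4.82 to 6.81). Kdm6a reached 4.66 (4.30 to 7.32) and Tet2 1.83 (1.22 to 2.62) CPM per kb. Dnmt3a and Kdm6a overlapped, whereas Tet2 lay below both in all libraries. Setbp1 was lowest by a wide margin, with a median of 0.111 CPM per kb (0.0584 to 0.153).

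The order of the genes was different in the CD11b+ fractions. In the BM the PRC2 core genes came first, with medians of 18.0 CPM per kb for Ezh2 (2.93 to 24.9), 17.4 for Eed (8.80 to 19.6) and 16.3 for Suz12 (4.45 to 20.2), and their ranges overlapped. In the spleen Eed led with 15.4 CPM per kb (8.06 to 25.4), and Ezh2 had a median of 6.48 (4.71 to 9.03), below Suz12 (9.18) and Asxl1 (8.91). Tet2 and Setbp1 were the lowest genes in both CD11b+ fractions as well, with median levels in the BM of 1.08 and 0.0343 CPM per kb and in the spleen of 2.09 and 0.179 CPM per kb. The Dnmt3a level was 1.70 CPM per kb in the BM and 5.03 in the spleen, and the Kdm6a level 3.48 and 3.23.

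Differences between fractions were tested with edgeR's quasi-likelihood test over all 21 libraries, as the mean of the within-genotype differences, with p-values adjusted over all 19555 genes by the Benjamini-Hochberg method and called at an adjusted p under 0.05. Between BM CD11b+ and LSK cells 3 of 8 genes were called, Eed higher and Dnmt3a and Kdm6a lower, while 58.4% of all genes were called (26.8% higher and 31.6% lower). Between spleen CD11b+ and LSK cells 3 of 8 were called, Eed higher and Ezh2 and Suz12 lower, beside 59.9% of all genes (28.3% higher and 31.6% lower). Between spleen and BM CD11b+ cells Ezh2 alone was called, lower in the spleen, beside 14% of all genes (7.4% lower). The median difference over the 8 genes was -0.51 for BM and -0.43 for spleen against LSK cells on the log2 scale, beside -0.17 and -0.14 over all genes tested.

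The direction of small differences from LSK cells depended on the scaling. LSK and CD11b+ libraries differ in how counts are spread over genes, and when libraries were scaled by their total counts alone instead of by TMM factors, the median over all genes fell to -0.99 in BM and -0.90 in spleen CD11b+ cells. The calls against LSK cells then split into 2706 higher of 12562 in the BM and 3193 higher of 12568 in the spleen, against 5243 of 11418 and 5537 of 11720 with TMM. Differences from LSK cells are best read relative to these shifts.

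**Figure D2:**
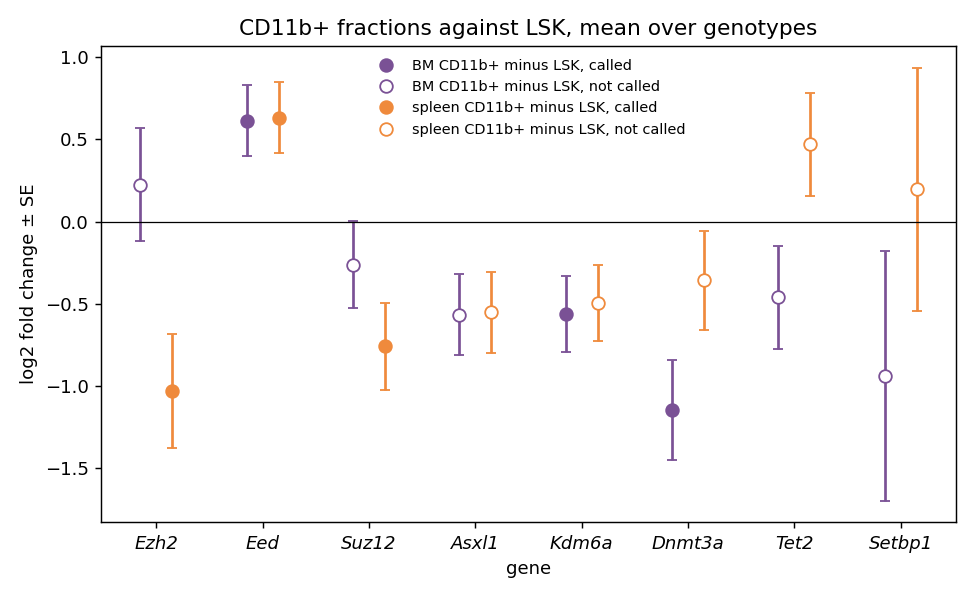
Difference of BM and spleen CD11b+ cells from LSK cells for each of the 8 genes (x axis) as log2 fold change (y axis), the mean over the 3 genotypes, with bars of ± 1 SE and filled points where the adjusted p was under 0.05. Ezh2 lay at -1.03 and Suz12 at -0.76 in the spleen, Dnmt3a lay at -1.15 in the BM, and Eed lay at 0.61 and 0.63 with TMM factors but below 0 when libraries were scaled by total counts alone. The median over all genes then lay at -0.99 in the BM and -0.90 in the spleen.

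Ezh2 (ENSMUSG00000029687, minus strand of chr6:47530139-47595341, GRCm38), the methyltransferase of PRC2, had log2 CPM levels in LSK cells of 6.39 and 6.51 in MxCre, 6.23 and 6.11 in Ptpn11D61Y/+, and 6.76, 6.71 and 6.64 in S3 mice. Its BM CD11b+ levels were 4.29 and 7.38 in MxCre, 6.91 and 6.82 in Ptpn11D61Y/+, and 6.97, 5.36 and 6.93 in S3 mice 540, 640 and 815. The spleen CD11b+ levels were 5.08 and 4.98 in MxCre, 5.44 and 5.45 in Ptpn11D61Y/+, and 5.38, 5.92 and 5.89 in S3 mice. The highest spleen library lay below the lowest LSK library, which held for no other gene of the 8 and for 18.3% of all genes. The 2 low BM values belong to the libraries that stood apart. Ezh2 fell by 1.03 ± 0.35 (SE) on the log2 scale in spleen CD11b+ against LSK cells (adjusted p = 0.0173) and was called in each of the 23 alternatives (-1.78 to -0.94). BM CD11b+ cells did not differ from LSK cells by the test (0.22 ± 0.34, adjusted p = 0.593, 95% confidence interval -0.50 to 0.95), and scaling by total counts alone turned this value to -0.66. Without the 2 BM libraries that stood apart, Ezh2 rose by 0.63 in BM CD11b+ cells (adjusted p = 0.00102). Between spleen and BM CD11b+ cells Ezh2 fell by 1.26 ± 0.35 (adjusted p = 0.0245), which was called in 13 of 23 alternatives, and the call was lost without BM MxCre replicate 2 (-0.51, adjusted p = 0.179) and with the replicate or mouse as a block (-1.07, adjusted p = 0.0880), where S3 mice 540, 640 and 815 are shared by both fractions. Without the libraries that stood apart the difference was -1.66 (adjusted p = 1.89e-06). These libraries hold the 2 lowest BM levels of Ezh2 and were set aside after the data were seen. The larger values and small p-values without them follow in part from that choice. None of the 8 genes separated all BM from all LSK libraries, as 11.6% of all genes did upward and 19.9% downward, nor all spleen from all BM CD11b+ libraries (0.414% and 0.245%), nor lay above all LSK libraries in the spleen (12.2%).

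Suz12 (ENSMUSG00000017548, plus strand of chr11:79993106-80034123), the scaffold subunit, resembled Ezh2. Its log2 CPM levels in LSK cells were 6.23 and 6.29 in MxCre, 6.29 and 6.04 in Ptpn11D61Y/+, and 6.66, 6.63 and 6.52 in S3 mice. CD11b+ cells of the BM held 4.46 and 6.34 in MxCre, 6.64 and 6.51 in Ptpn11D61Y/+, and 6.33, 6.0 and 5.45 in S3 mice. Those of the spleen held 4.59 and 5.39 in MxCre, 6.04 and 5.64 in Ptpn11D61Y/+, and 5.51, 6.42 and 5.38 in S3 mice. The 3 lowest spleen libraries were both MxCre libraries and S3 815, and S3 640 and Ptpn11D61Y/+ replicate 1 reached the LSK range. Suz12 fell by 0.76 ± 0.27 in spleen CD11b+ against LSK cells (adjusted p = 0.0221), and the call was lost without spleen MxCre replicate 1 (-0.65, adjusted p = 0.0730) or spleen Ptpn11D61Y/+ replicate 2 (-0.70, adjusted p = 0.0653). In the BM the difference was -0.26 ± 0.27 (adjusted p = 0.412, interval -0.82 to 0.30), and -0.049 (adjusted p = 0.875) without the libraries that stood apart. Over 23 alternatives the BM value ran from -1.10 to 0.024, and 2 of them called it. The difference between spleen and BM CD11b+ cells was not called over all libraries and was -0.71 (adjusted p = 0.0296) without them.

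Eed (ENSMUSG00000030619, minus strand of chr7:89954654-89980983), which reads the mark that EZH2 sets, had LSK levels of 5.24 and 5.36 log2 CPM in MxCre, 5.22 and 5.01 in Ptpn11D61Y/+, and 5.63, 5.28 and 5.45 in S3 mice. In CD11b+ cells the BM levels were 6.11 and 6.23 in MxCre, 5.85 and 5.51 in Ptpn11D61Y/+, and 6.06, 5.08 and 6.20 in S3 mice. The spleen levels were 6.15 and 6.61 in MxCre, 5.39 and 5.89 in Ptpn11D61Y/+, and 5.69, 4.95 and 6.24 in S3 mice. S3 640 was the lowest library of both CD11b+ fractions. With TMM factors Eed rose against LSK cells by 0.61 ± 0.22 in the BM (adjusted p = 0.0236) and by 0.63 ± 0.22 in the spleen (adjusted p = 0.0196). With total-count scaling its differences were -0.27 and -0.15, so their sign depends on the scaling. The median over all genes moved as well, from -0.17 to -0.99 in the BM and from -0.14 to -0.90 in the spleen. Eed lay above that median under both scalings. The Eed call was lost in 3 of 14 fits that left out a library in the BM and in 4 of 14 in the spleen. In the BM it was also lost without the libraries of under 15000 genes. Across the 14 CD11b+ libraries the Eed level fell as the number of genes detected rose (r of -0.71, as a description). Without the libraries that stood apart the BM value was 0.73 (adjusted p = 0.00727). Exons of Eed and of the noncoding gene E230029C05Rik overlap by 261 bases on opposite strands, and whether the counting used strand is not given in the sources used here. Short overlaps with an opposite-strand gene are also annotated for Ezh2 (174 bases), Suz12 (178), Asxl1 (197), Dnmt3a (133) and Tet2 (43).

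Sequence before the start sites is shown for the 3 PRC2 core genes, since across the 21 libraries Ezh2 and Suz12 rose and fell together (Pearson's r of 0.77) and Eed and Suz12 moved in opposite directions (r of -0.55). The RefSeq promoter table (GRCm38.p6) gave windows for 7 of the 8 genes, and annotated untranslated bases were removed. The windows of Ezh2, Tet2 and Dnmt3a lie before RefSeq starts that are internal to the gene as GENCODE annotates it, so the Ezh2 bases shown lie inside the coordinates given above and downstream of their 5′ end. Capitals mark a match to 3 words of E2F type, TTTCCCGC, TTTGGCGC and TTCCCGCC, searched on both strands, of which the first and the last can overlap.
Ezh2, chr6:47595059-47595183, minus strand: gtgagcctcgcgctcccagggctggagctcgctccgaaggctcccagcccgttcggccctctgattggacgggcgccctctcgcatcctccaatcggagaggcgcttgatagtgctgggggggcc
Eed, chr7:89980984-89981226, minus strand: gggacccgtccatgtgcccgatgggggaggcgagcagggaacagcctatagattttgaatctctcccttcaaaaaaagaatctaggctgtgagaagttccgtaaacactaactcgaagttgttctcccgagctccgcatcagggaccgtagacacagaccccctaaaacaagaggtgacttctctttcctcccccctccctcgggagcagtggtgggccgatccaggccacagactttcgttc
Suz12, chr11:79992856-79993105, plus strand: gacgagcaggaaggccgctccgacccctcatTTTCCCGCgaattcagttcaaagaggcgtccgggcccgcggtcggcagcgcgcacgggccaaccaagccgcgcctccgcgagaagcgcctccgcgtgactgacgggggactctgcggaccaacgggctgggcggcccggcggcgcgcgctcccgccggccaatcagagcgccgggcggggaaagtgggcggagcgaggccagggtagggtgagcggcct

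In the 250 bases before the start, Suz12 held TTTCCCGC 219 bases upstream and Asxl1 held TTCCCGCC 228 bases upstream. No match was found in the windows of Ezh2, Eed, Tet2 and Kdm6a or in the 3 windows of Dnmt3a. Of all 32851 promoter windows, 2.69% held a match, and a match is a description of letters and not a binding site. All 7 genes had windows with GC contents at or above 54.4%, against a median of 52.4% over all windows, with 73.6% for Suz12, 63.6% for Ezh2 and 54.4% for Eed.

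Among the 14 CD11b+ libraries the Ezh2 and Suz12 levels followed the summed level of 18 proliferation genes such as Mki67, Top2a and the Mcm genes of the replication helicase. Across these libraries Pearson's r between the log2 level and the log2 sum was 0.90 for Ezh2, 0.83 for Suz12, 0.63 for Kdm6a, 0.20 for Asxl1, 0.13 for Setbp1, -0.29 for Eed, -0.50 for Tet2 and -0.69 for Dnmt3a. Within the 7 LSK libraries r was 0.98 for Ezh2, 0.95 for Suz12 and 0.81 for Eed. It was 0.50 for Asxl1, Kdm6a and Dnmt3a, 0.11 for Tet2 and -0.74 for Setbp1, so Dnmt3a had the other sign than in CD11b+ cells. The libraries share genotypes, mice and differences of composition, so these values describe the libraries and carry no test. The values over the 14 CD11b+ libraries pool BM and spleen without removal of the tissue means, so they also contain the difference between the tissues. The sum of monocyte and macrophage markers moved the other way across the 14 libraries, with r of -0.84 for Ezh2, -0.76 for Suz12 and 0.76 for Dnmt3a. The sum of erythroid markers had r of 0.72 for Ezh2, 0.45 for Suz12, -0.55 for Dnmt3a and -0.71 for Tet2. Proliferation genes were themselves lower in the spleen, where 15 of 18 were called lower than in LSK cells and 14 of 18 lower than in BM CD11b+ cells. Also called lower than in BM CD11b+ cells were 12 of 13 erythroid (median -4.18), 5 of 5 promyelocyte (-3.79) and 9 of 10 mature neutrophil markers (-1.74), beside 7.4% of all genes. Of 10 monocyte and macrophage markers 2 were called higher and 1 lower. The part of these genes and markers in the Ezh2 and Suz12 differences was not tested.

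**Figure D3:**
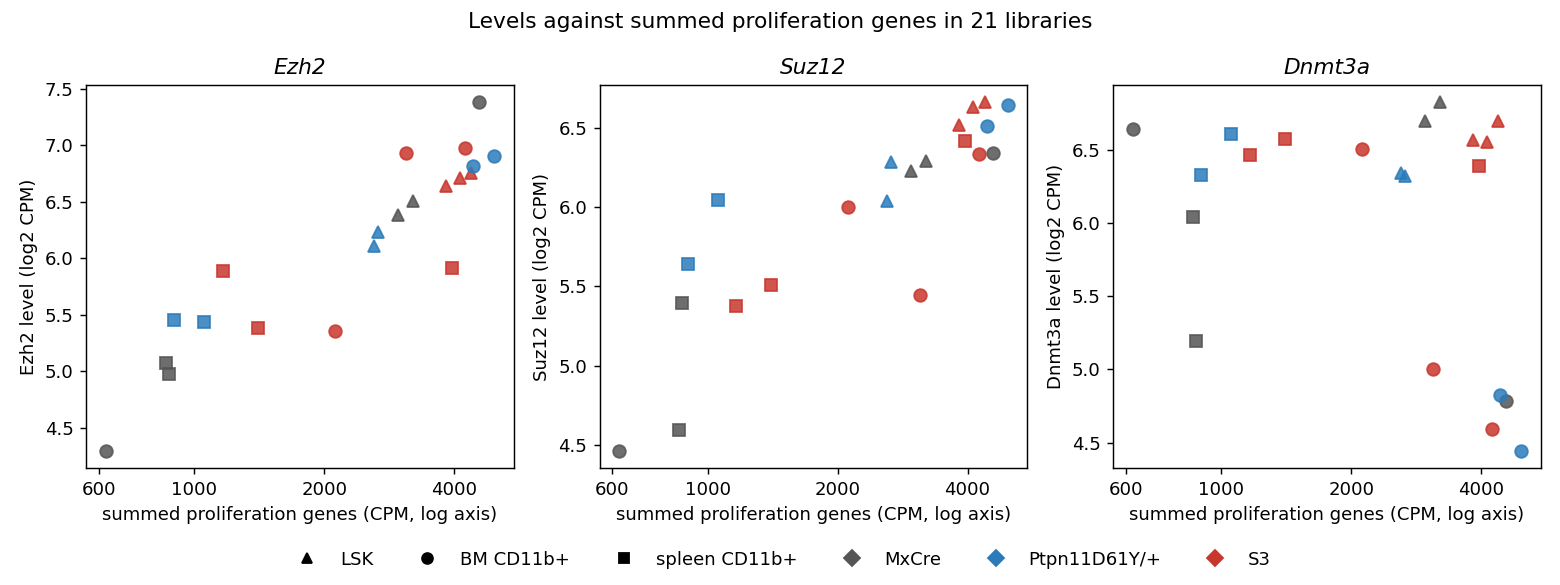
Levels of Ezh2, Suz12 and Dnmt3a (log2 CPM, y axis) against the summed CPM of 18 proliferation genes (x axis, log scale), with 1 point for each of the 21 libraries, shaped by fraction and coloured by genotype. Ezh2 and Suz12 rise along the axis within the 14 CD11b+ libraries (r of 0.90 and 0.83), with BM MxCre replicate 1 at the left end at 624 CPM, whereas Dnmt3a falls (r of -0.69).

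Ezh1, the EZH2 paralog of resting cells, was higher in both CD11b+ fractions than in LSK cells (0.70 ± 0.17, adjusted p = 0.00282, and 0.78 ± 0.17, adjusted p = 0.00121). The ratio of Ezh1 to Ezh2, taken per kilobase, was examined after these values were seen. Its log2 mean was -1.11 ± 0.47 (SD, n = 7, range -1.68 to -0.57) in LSK cells and 0.71 ± 0.71 (n = 7, range -0.15 to 1.77) in spleen CD11b+ cells. In the BM it was -0.34 ± 1.38 over 7 libraries, which rests on the 2 that stood apart, and -1.03 ± 0.35 (n = 5, range -1.51 to -0.64) without them, within the LSK range. The ratio combines the Ezh1 and Ezh2 levels already described and carries no test of its own. In LSK cells the ratio was 0.313 to 0.352 in S3 mice and 0.496 to 0.673 in controls, and in the spleen it was 3.41 and 2.95 in MxCre and 0.901 to 1.62 in the other 5 libraries.

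The remaining PRC2 genes of a list of 8 split in both comparisons with LSK cells, 2 called higher and 2 lower in the BM, 3 higher and 3 lower in the spleen. The counts of this and the following lists stand beside 26.8% of all genes called higher and 31.6% lower in the BM and 28.3% and 31.6% in the spleen, and no list was tested as such. Phf1, an accessory subunit that binds H3K36 methylation, rose by 2.62 ± 0.34 in BM and 2.58 ± 0.34 in spleen CD11b+ cells (adjusted p of 1.55e-05 and 1.58e-05). Mtf2, the accessory subunit that binds unmethylated CpG islands, fell by 2.26 ± 0.28 and by 2.81 ± 0.29 (adjusted p of 1.04e-05 and 1.46e-06). The histone-binding subunit Rbbp7 fell by 0.87 and by 0.85, and Aebp2 rose by 0.84 in the spleen. The median of the list was -0.23 in the BM and 0.06 in the spleen.

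Asxl1 (ENSMUSG00000042548, plus strand of chr2:153345829-153404007), the BAP1 cofactor, had the narrowest spread of the 8 genes in LSK cells, with log2 CPM levels of 6.99 and 7.01 in MxCre, 6.67 and 6.80 in Ptpn11D61Y/+, and 6.85, 7.04 and 6.92 in S3 mice. Its levels in BM CD11b+ cells were 6.18 and 6.17 in MxCre, 6.47 and 6.54 in Ptpn11D61Y/+, and 6.11, 6.82 and 5.75 in S3 mice. Its levels in spleen CD11b+ cells were 6.11 and 7.32 in MxCre, 5.76 and 5.88 in Ptpn11D61Y/+, and 6.05, 7.07 and 5.50 in S3 mice. BM levels overlapped LSK levels only through S3 640, and 2 spleen libraries lay above the LSK range. Neither difference from LSK cells passed the test, at -0.57 ± 0.25 (adjusted p = 0.0601) for the BM and -0.55 ± 0.25 (adjusted p = 0.0649) for the spleen. With the replicate or mouse as a block both were called, at -0.70 (adjusted p = 0.00624) and -0.73 (adjusted p = 0.00468). The block also joins control libraries by replicate numbers that need not mark the same mouse, and whose deviations between fractions correlated between -0.173 and 0.0585. For Ptpn11D61Y/+ replicate 1 the spleen number does not mark the same mouse, by the sex-linked transcripts given with Kdm6a, so the block is wrong there. Without the libraries that stood apart, the BM was called at -0.69 (adjusted p = 0.0367) and the spleen at -0.55 (adjusted p = 0.0489).

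Of 10 other PR-DUB genes 8 were called lower and 0 higher in the BM and 7 lower and 0 higher in the spleen, beside 31.6% of all genes called lower in each, with medians of -0.98 and -0.89. Hcfc1, a host cell factor of the complex, fell by 1.58 ± 0.40 and by 1.89 ± 0.40 (adjusted p of 0.00319 and 0.000916), and Asxl2, the paralog of Asxl1, fell by 1.40 ± 0.34 in both (adjusted p of 0.00256 and 0.00239). Foxk1, a forkhead factor that recruits BAP1, fell by 1.37 in the BM. Bap1 itself, the deubiquitinase, named after its values were seen, was not called (0.017 ± 0.13, adjusted p = 0.930, and -0.14 ± 0.13, adjusted p = 0.377). Of 21 PRC1 genes, whose histone mark PR-DUB removes, 11 were called lower and 5 higher in the BM and 11 lower and 4 higher in the spleen, beside 31.6% of all genes lower in each and 26.8% and 28.3% higher. Among them were the chromobox gene Cbx2 (-3.53 ± 0.53 and -5.05 ± 0.58), the CpG island reader Kdm2b (-3.66 ± 0.60 and -2.62 ± 0.57) and the ring finger gene Pcgf2 (-3.03 ± 0.58 and -3.60 ± 0.59). Under total-count scaling the whole of this comparison shifts further down, as given above.

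Kdm6a (ENSMUSG00000037369, plus strand of chrX:18162575-18279936), the demethylase of the PRC2 mark, had log2 CPM levels in LSK cells of 5.34 and 5.26 in MxCre, 5.29 and 5.18 in Ptpn11D61Y/+, and 5.17, 5.94 and 5.80 in S3 mice 540, 768 and 815. BM CD11b+ libraries had 3.76 and 4.84 in MxCre, 5.22 and 5.37 in Ptpn11D61Y/+, and 4.98, 4.87 and 4.59 in S3 mice. Spleen CD11b+ libraries had 4.56 and 4.98 in MxCre, 5.21 and 4.46 in Ptpn11D61Y/+, and 4.45, 5.65 and 4.76 in S3 mice. The low end of the BM range was BM MxCre replicate 1, and the high end in LSK cells was formed by S3 768 and 815. Kdm6a fell by 0.56 ± 0.23 in BM CD11b+ against LSK cells (adjusted p = 0.0460), a call kept in 3 of 14 fits that left out a library (-0.78 to -0.42, adjusted p up to 0.133) and lost without the libraries that stood apart (-0.43, adjusted p = 0.131). Within genotypes this difference was -0.90 ± 0.43 in MxCre, -0.85 ± 0.35 in S3 and 0.061 ± 0.42 in Ptpn11D61Y/+ mice, none of them called. In the spleen the difference was -0.50 ± 0.23 (adjusted p = 0.0734), and it was called with the block (-0.55, adjusted p = 0.0486).

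Kdm6a lies on the X chromosome and escapes X inactivation, so transcripts that mark the sex of a mouse were read beside it. LSK libraries S3 768 and S3 815 carried Xist, the RNA of the inactive X, at 664 and 411 CPM and had no counts of 4 Y genes, while the other 5 LSK libraries carried Y transcripts. Kdm6a was 61.4 and 55.8 CPM in the pair with Xist and 36.0 to 40.6 CPM in the 5 with Y transcripts. The high Kdm6a levels of S3 LSK cells were those of the Xist libraries, and S3 540, with Y transcripts, lay with the controls. Monocyte and macrophage markers split the same libraries, with sums of 657 and 639 CPM in S3 768 and 815 and 162 to 345 CPM in the other 5. Kdm6a followed this sum over the LSK libraries (r of 0.88, as a description). The part of sex or of these cells in the Kdm6a level was not tested. Uty, the Y-linked paralog of Kdm6a, was at 12.2 to 18.6 CPM in the 5 libraries and absent from the pair. In CD11b+ cells the Kdm6a ranges of libraries with Xist alone and with Y transcripts alone overlapped, at 27.1 to 37.0 and 22.0 to 50.3 CPM in the spleen. For mouse 540 the fractions differed: Xist was 0.00736 CPM in LSK cells, 62.9 in BM and 10.8 in spleen CD11b+ cells, beside 112, 21.7 and 63.9 CPM of Y transcripts. BM MxCre replicate 2 also carried both kinds. The Ptpn11D61Y/+ libraries of replicate 1 carried Y transcripts in LSK and BM CD11b+ cells and Xist (77.3 CPM) without Y transcripts in spleen CD11b+ cells. In the spleen this number therefore does not mark the same mouse as in the other fractions. Other shared replicate numbers of the controls need not mark the same mouse either. Whether any of these libraries holds cells of more than 1 mouse was not tested.

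**Figure D4:**
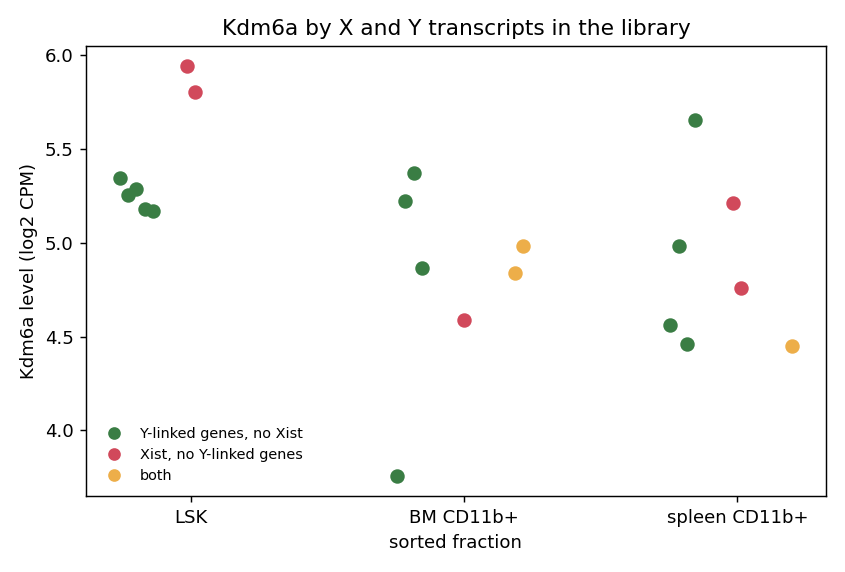
Kdm6a level (log2 CPM, y axis) in each library by fraction, coloured by the sex-linked transcripts the library carried: Xist alone, the 4 Y genes alone, or both, each counted as carried from 5 CPM on. The 2 LSK libraries with Xist lie at 5.94 and 5.80, above the 5 LSK libraries with Y transcripts at 5.17 to 5.34, and the classes overlap in the spleen CD11b+ libraries.

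The other H3K27 demethylase, Kdm6b, which inflammatory signals induce in macrophages, rose by 1.76 ± 0.37 in spleen CD11b+ against LSK cells (adjusted p = 0.000765) and did not pass the test in the BM (0.75 ± 0.36, adjusted p = 0.0813). Of 10 tested genes of the demethylase and MLL3/4 complex list, 5 were called lower and 1 higher in the BM and 6 lower and 1 higher in the spleen. The methyltransferases themselves were among them, Kmt2d at -1.23 ± 0.28 and -0.96 ± 0.28 (adjusted p of 0.00176 and 0.00827). Kmt2c was at -1.20 ± 0.30 in the BM (adjusted p = 0.00342) and was also called lower in the spleen. Paxip1, another subunit, fell by 1.41 in the spleen.

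Dnmt3a (ENSMUSG00000020661, plus strand of chr12:3806007-3914443), the de novo DNA methyltransferase, had log2 CPM levels in LSK cells of 6.69 and 6.82 in MxCre, 6.32 and 6.34 in Ptpn11D61Y/+, and 6.69, 6.56 and 6.57 in S3 mice. The BM CD11b+ libraries had 6.64 and 4.78 in MxCre, 4.44 and 4.83 in Ptpn11D61Y/+, and 4.59, 6.51 and 5.0 in S3 mice. The spleen CD11b+ libraries had 6.04 and 5.19 in MxCre, 6.61 and 6.33 in Ptpn11D61Y/+, and 6.57, 6.39 and 6.46 in S3 mice. Of the 7 BM libraries, 5 lay between 4.44 and 5.0, and the 2 that reached LSK levels were MxCre replicate 1 and S3 640, the libraries that stood apart. Dnmt3a fell by 1.15 ± 0.31 in BM CD11b+ against LSK cells (adjusted p = 0.00469), was called in all 23 alternatives (-1.94 to -0.93), and fell by 1.82 without those libraries. The spleen did not differ from LSK cells by the test (-0.36 ± 0.30, adjusted p = 0.320, interval -1.0 to 0.28). Over 23 alternatives this value ran from -1.09 to -0.24, and 3 of them called it. Spleen exceeded BM CD11b+ cells by 0.79 ± 0.30, which did not pass (adjusted p = 0.0963), but without the 2 libraries the difference was 1.46 and was called. Both values without these libraries leave out the 2 highest BM levels of Dnmt3a, under the limit given for Ezh2. Within genotypes, spleen minus BM was -0.32 ± 0.55 in MxCre, 1.83 ± 0.57 in Ptpn11D61Y/+ and 0.86 ± 0.46 in S3 mice, none of them called. The direction in MxCre mice was thus opposite to the mean.

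Tet2 (ENSMUSG00000040943, minus strand of chr3:133463679-133545139), which oxidizes 5-methylcytosine, varied widely within the CD11b+ fractions. Its log2 CPM levels in LSK cells were 5.19 and 4.95 in MxCre, 4.72 and 4.70 in Ptpn11D61Y/+, and 4.37, 5.47 and 5.08 in S3 mice. CD11b+ cells of the BM had 4.79 and 4.19 in MxCre, 3.95 and 4.04 in Ptpn11D61Y/+, and 3.92, 5.75 and 4.45 in S3 mice. CD11b+ cells of the spleen had 5.95 and 6.35 in MxCre, 4.87 and 5.14 in Ptpn11D61Y/+, and 3.99, 5.86 and 4.71 in S3 mice. S3 640 was high and S3 540 low in both CD11b+ fractions. No difference between fractions was called, with -0.46 ± 0.31 for BM against LSK cells (adjusted p = 0.214), 0.47 ± 0.31 for spleen against LSK cells (adjusted p = 0.204, turned to -0.27 by total-count scaling) and 0.93 ± 0.31 for spleen against BM CD11b+ cells (adjusted p = 0.0593). With the block, under the limit given for Asxl1, the last was called (0.94, adjusted p = 0.00652), as was the BM against LSK cells (-0.60, adjusted p = 0.00590). Without the libraries that stood apart these values were 1.28 and -0.81. Those libraries hold the highest BM levels of Tet2, 5.75 in S3 640 and 4.79 in MxCre replicate 1, so the limit given for Ezh2 applies. Within genotypes, spleen minus BM was 1.64 ± 0.59 in MxCre, 1.02 ± 0.58 in Ptpn11D61Y/+ and 0.14 ± 0.47 in S3 mice, none of them called.

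Of 9 other DNA methylation genes 6 were called lower in the BM and 7 in the spleen, with 2 called higher in each, beside 31.6% of all genes called lower in each fraction. Tet1, a TET enzyme of stem and progenitor cells, fell by 4.48 ± 0.36 and by 6.84 ± 0.41 (adjusted p of 1.33e-07 and 1.5e-08), and Dnmt3b fell by 4.36 ± 0.54 and by 5.36 ± 0.57. Dnmt1, the maintenance methyltransferase of replicating cells, fell by 2.17 ± 0.54 and by 3.17 ± 0.56 (adjusted p of 0.00286 and 0.000204), and its partner Uhrf1 fell by 2.21 in the spleen. Dnmt3l, a catalytically inactive cofactor, rose by 3.37 ± 0.41 in the BM (adjusted p = 7.81e-06). The list medians were -1.14 in the BM and -1.88 in the spleen, further from the median of all genes than the Dnmt3a value in the spleen or either Tet2 value.

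**Figure D5:**
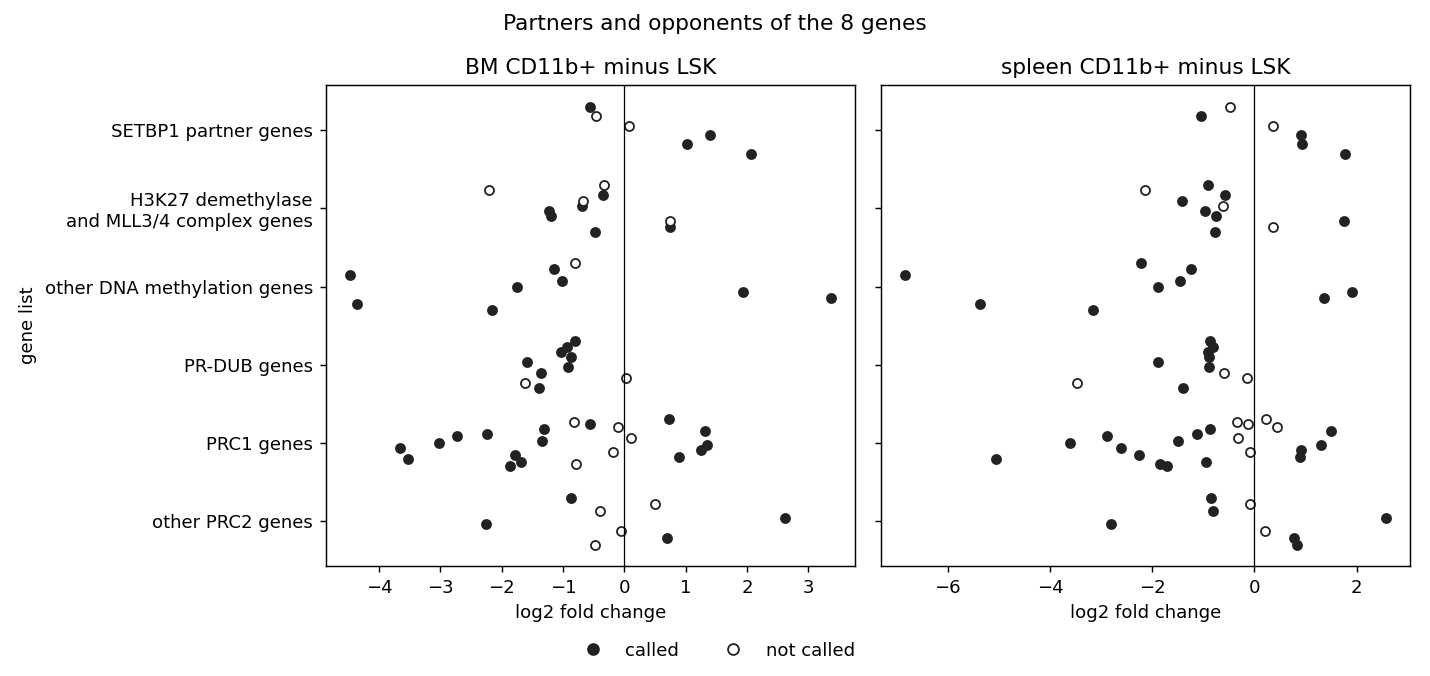
Log2 fold change against LSK cells (x axis) of each tested gene of the 6 partner lists (y axis), for BM CD11b+ cells on the left and spleen CD11b+ cells on the right, with filled points where the adjusted p was under 0.05. Most points of the other DNA methylation genes (medians -1.14 and -1.88) and of the PR-DUB genes (-0.98 and -0.89) lie below 0, and called genes of the SETBP1 partner list lie on both sides.

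Setbp1 (ENSMUSG00000024548, on chromosome 18), the SET-binding protein, had the lowest counts of the 8 genes, which varied widely in CD11b+ cells. LSK libraries held 135 and 103 counts in MxCre, 238 and 171 in Ptpn11D61Y/+, and 79, 142 and 121 in S3 mice, which is 0.582 to 1.52 CPM. The BM CD11b+ counts were 0 and 8 in MxCre, 68 and 91 in Ptpn11D61Y/+, and 14, 265 and 9 in S3 mice 540, 640 and 815. The spleen CD11b+ counts were 0 and 26 in MxCre, 411 and 270 in Ptpn11D61Y/+, and 133, 35 and 89 in S3 mice. The libraries at 0 were those of MxCre replicate 1 in each tissue, where a count of 0 allows up to 0.112 and 0.0762 CPM, and both were among the 3 libraries of low complexity. Across the 14 CD11b+ libraries the Setbp1 level followed the number of genes detected (r of 0.76, as a description). Of the other genes, r was 0.73 for Suz12, 0.64 for Kdm6a, 0.41 for Asxl1 and -0.71 for Eed. It was 0.12 for Ezh2, 0.072 for Dnmt3a and -0.024 for Tet2. Neither fraction differed from LSK cells by the test, at -0.94 ± 0.76 for the BM (adjusted p = 0.299, interval -2.55 to 0.67, and -1.28 without the libraries that stood apart) and 0.20 ± 0.74 for the spleen (adjusted p = 0.840, interval -1.38 to 1.77, with values from -2.30 to 0.52 over 23 alternatives). Within genotypes the BM values against LSK cells were -3.20 ± 1.54 in MxCre, -0.00019 ± 1.34 in Ptpn11D61Y/+ and 0.38 ± 1.10 in S3 mice. Those of the spleen were -1.86 ± 1.41, 1.91 ± 1.38 and 0.53 ± 1.10, and none of these values was called. The spleen Ptpn11D61Y/+ libraries held the highest Setbp1 levels of the series, 6.68 and 4.44 CPM. The sums of 8 B cell markers were 1506 and 2142 CPM in these libraries, 238 and 100 CPM in the MxCre and 84.4 to 939 CPM in the S3 spleens. In the BM the Ptpn11D61Y/+ libraries had 1.29 and 1.67 CPM of Setbp1 beside B cell sums of 1558 and 2076 CPM, and S3 640, a library that stood apart, had 3.06 CPM beside 302 CPM. BM MxCre replicate 2 had 0.212 CPM of Setbp1 beside 1406 CPM, and MxCre replicate 1 had 0 beside 315 CPM. BM S3 815 had 0.342 CPM beside 744 CPM, and S3 540 had 0.317 CPM beside 547 CPM. The part of B cells in the Setbp1 level was not tested.

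Of 6 genes of the SETBP1 axis, 3 were called higher and 1 lower in each CD11b+ fraction against LSK cells. Anp32a, a partner of SET in PP2A inhibition, rose by 2.06 ± 0.37 and by 1.77 ± 0.37 (adjusted p of 0.000264 and 0.000785). The catalytic PP2A subunits Ppp2ca (1.02 ± 0.20 and 0.93 ± 0.20) and Ppp2cb (1.40 ± 0.18 and 0.92 ± 0.18) rose in both. The gene called lower was Set in the BM (-0.56 ± 0.23, adjusted p = 0.0479) and the scaffold gene Ppp2r1b in the spleen (-1.05 ± 0.31, adjusted p = 0.00833).

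The comparison the study was built on sets S3 against control mice. In LSK cells 0 of 8 genes were called between S3 and MxCre mice by edgeR, beside 0.0307% of all genes (6, of which 0.0256% lower), and 0 of 8 had an unadjusted p under 0.05, beside 3.97% of all genes. DESeq2 and limma-voom also called 0. Ezh2 was 0.26 ± 0.58 and Suz12 0.35 ± 0.45 higher in S3 mice on the log2 scale, Kdm6a 0.37 ± 0.39 and Eed 0.16 ± 0.36, and the values of Asxl1 (-0.055), Tet2 (-0.038), Setbp1 (-0.11) and Dnmt3a (-0.15) were close to 0 (all adjusted p = 1). The intervals were wide, for Ezh2 from -0.97 to 1.48, because the spread was estimated over all 9 groups, in which CD11b+ libraries vary more than LSK libraries.

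In a fit of the LSK libraries of these 2 groups alone, the spread was small and 4536 genes were called between S3 and MxCre mice. Suz12 was then called (0.35, adjusted p = 0.0211). Against Ptpn11D61Y/+ mice, where 19 genes (0.0972%, 0.092% higher) and 0 of the 8 were called over all libraries (0 of the 8 also at an unadjusted p under 0.05, beside 5.74% of all genes, by DESeq2 and by limma-voom), the fit of these LSK groups alone called 5158 genes, with Ezh2 (0.46, adjusted p = 0.00956) and Suz12 (0.37, adjusted p = 0.0314) higher. All 3 S3 libraries lay above all 4 control libraries for these 2 of the 8 genes, which was the case for 22.4% of all genes, and none of the 8 lay below all 4, as 18.7% of all genes did. The sum of the proliferation genes was 3822 to 4379 CPM in the S3 and 2608 to 3213 CPM in the control LSK libraries, and the promyelocyte markers summed to 4371 to 6102 CPM against 1629 to 2730 CPM, with the granule gene Mpo among them. Their part in the Ezh2 and Suz12 values was not tested.

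The 2 control genotypes of LSK cells were compared with each other in the same way. Over all libraries 12 genes (0.0614%) were called between Ptpn11D61Y/+ and MxCre mice and 0 of the 8, with Dnmt3a at -0.43 ± 0.55 and Tet2 at -0.37 ± 0.57 (both adjusted p = 1). The fit of these LSK groups alone called 2601 genes, Dnmt3a (-0.41, adjusted p = 0.00722) and Tet2 (-0.35, adjusted p = 0.0452) among them. In size, these differences between control genotypes were like those of Ezh2 and Suz12 between S3 and control mice. The 10 mature neutrophil markers summed to 2815 and 2359 CPM in the MxCre and to 252 and 182 CPM in the Ptpn11D61Y/+ LSK libraries, with 5 of 10 called lower over all libraries (median -5.67). Dnmt3a followed this sum over the 7 LSK libraries with an r of 0.88 and Tet2 with an r of 0.52, as descriptions, and the part of these cells was not tested.

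In BM CD11b+ cells 0 genes of 19555 (0%) were called in any of the 3 genotype comparisons by edgeR over all libraries. At an unadjusted p under 0.05, 1 of the 8 (Setbp1) stood between S3 and MxCre mice, beside 15.5% of all genes, and 2 (Setbp1 and Dnmt3a) between Ptpn11D61Y/+ and MxCre mice, beside 22.6%, while DESeq2 and limma-voom called 0 of the 8. Setbp1 was at 3.47 ± 1.5 (adjusted p = 0.291) and 3.70 ± 1.57 (adjusted p = 0.198), against MxCre libraries of 0 and 8 counts. Without the libraries that stood apart, of which MxCre replicate 1 is the one at 0 and S3 640 the highest, these values were 0.63 and 2.79. At the level of all genes, 3022 had an unadjusted p under 0.05 between S3 and MxCre mice, 1608 between S3 and Ptpn11D61Y/+ mice and 4419 between the control genotypes, for which DESeq2 called 965, 256 and 1864 genes and limma-voom 23, 3 and 7. The MxCre pair was split by its first library, which held the lowest Ezh2 (4.29) and Suz12 (4.46) levels of the BM, while the second held the highest Ezh2 level (7.38). The Ezh2 value of S3 against MxCre mice, 0.047 ± 0.57, became 2.30 without MxCre replicate 2 (adjusted p = 0.0137) and -0.79 without MxCre replicate 1. None of the 8 genes separated the S3 libraries from all 4 control libraries in the BM, as 1.78% of all genes did upward and 1.7% downward. Suz12 moved in the same way as Ezh2, from 0.28 ± 0.45 to between -0.37 and 1.51. Between the control genotypes Dnmt3a was at -1.35 ± 0.56 (adjusted p = 0.196), Suz12 at 0.89 ± 0.49 (adjusted p = 0.275) and Ezh2 at 0.32 ± 0.63 (adjusted p = 0.772).

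Over all libraries, the comparisons with MxCre mice called the most genes in spleen CD11b+ cells. Between S3 and MxCre mice 819 genes (4.19%) were called, 296 of them higher and the rest (2.67%) lower, and 0 of the 8, with 1 (Tet2) at an unadjusted p under 0.05, beside 25.3% of all genes, and 0 called by DESeq2 or limma-voom (which called 3409 and 1362 of all genes). With total-count scaling 917 genes were called, 661 of them higher, and the median over all genes moved from 0.32 to 0.77. Setbp1 was at 2.28 ± 1.37 (adjusted p = 0.297, interval -0.61 to 5.18), against MxCre spleens of 0 and 26 counts. Its value was 9.77 without MxCre replicate 2, which leaves the library at 0, and -1.06 with both control genotypes together, which adds the Ptpn11D61Y/+ spleens of 411 and 270 counts. Of the other 7 genes Tet2 had the largest value, -1.10 ± 0.52 (adjusted p = 0.193, interval -2.20 to -0.013). Suz12 was at 0.80 ± 0.46 (adjusted p = 0.277), Dnmt3a at 0.80 ± 0.52 (adjusted p = 0.334) and Ezh2 at 0.72 ± 0.59 (adjusted p = 0.445). Eed was at -0.68 ± 0.36 (adjusted p = 0.244), Asxl1 at -0.48 ± 0.41 (adjusted p = 0.469, turned to 0.093 by total-count scaling) and Kdm6a at 0.26 ± 0.39 (adjusted p = 0.696). Over 14 alternatives Tet2 ran from -1.77 to -0.57, Suz12 from 0.34 to 1.33 and Dnmt3a from 0.35 to 1.29. Ezh2 ran from 0.50 to 1.16, Eed from -1.03 to -0.27, Asxl1 from -1.04 to 0.24 and Kdm6a from -0.17 to 0.78. None of the 8 genes separated S3 from all 4 control libraries, as 3.41% of all genes did upward and 2.27% downward. Without the 2 BM libraries that stood apart, which lowers the estimated spread, Ezh2 (0.72, adjusted p = 0.0293) and Dnmt3a (0.80, adjusted p = 0.0469) were called among 3117 genes in all.

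Partner genes did pass in this comparison. Between S3 and MxCre spleens Tet1 rose by 3.56 ± 0.74 (adjusted p = 0.0169), Ppp2r1b by 2.23 ± 0.56 (adjusted p = 0.0372) and Rbbp7 by 1.37 ± 0.34 (adjusted p = 0.0334). Kdm6b fell by 2.58 ± 0.60 (adjusted p = 0.0254) and Phf1 by 2.42 ± 0.54 (adjusted p = 0.0230). Tet1 had 0 and 3 counts in the MxCre spleens and 25 to 29 counts in the S3 spleens, so its fold depends on the prior count. Phf1 and Tet1 were also called between Ptpn11D61Y/+ and MxCre spleens (-2.35 ± 0.62 and 4.53 ± 0.76). These comparisons share the MxCre libraries. The erythroid markers summed to 3491 and 1188 CPM in the MxCre spleens and to 14712, 30385 and 16008 CPM in the S3 spleens, with positive values for 13 of 13 (median 3.73) and Epb42, Alas2 and Hbb-bs called higher. The proliferation genes summed to 859 and 872 CPM against 1404, 3952 and 1165 CPM, with positive values for 18 of 18 (median 1.64) and 0 called by edgeR. B cell markers had positive values for 8 of 8 (median 1.62), also with 0 called. Their part in the values of the 8 genes and of the partner genes was not tested.

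Between Ptpn11D61Y/+ and MxCre spleens 1000 genes (5.11%) were called, 410 of them higher (2.1%, and 3.02% lower), against 1429 of 1707 with total-count scaling. Of the 8 genes 0 were called and 2 had an unadjusted p under 0.05, beside 24.7% of all genes. These were Setbp1 at 4.27 ± 1.54 (adjusted p = 0.106, interval 1.0 to 7.54) and Asxl1 at -1.01 ± 0.46 (adjusted p = 0.186), while Tet2 was at -1.15 ± 0.58 (adjusted p = 0.227). Setbp1 was called in 4 of 13 alternatives, DESeq2 and limma-voom among them, with values from 3.29 to 11.8. The sum of mature neutrophil markers was 4489 and 8301 CPM in the Ptpn11D61Y/+ spleens and 68630 and 128652 CPM in the MxCre spleens, and 7 of the 10 markers were called lower. S3 spleens held 41284 to 94311 CPM. The part of these cells in the differences between the control genotypes was not tested. Between S3 and Ptpn11D61Y/+ spleens 1 gene (0.00511%) was called by edgeR, 385 by DESeq2 and 12 by limma-voom. Of the 8 genes 0 were called by each tool, and 0 had an unadjusted p under 0.05, beside 8.88% of all genes.

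Whether the difference between S3 and MxCre mice itself varied between fractions was tested as an interaction. For spleen CD11b+ against LSK cells 1 gene (0.00511%) was called (with 2614 at an unadjusted p under 0.05, 827 by DESeq2 and 63 by limma-voom) and for BM CD11b+ against LSK cells 0 (0%, with 1587 at an unadjusted p under 0.05, 141 by DESeq2 and 4 by limma-voom), with 0 of the 8 in both, also at an unadjusted p under 0.05 and by DESeq2 and limma-voom. No difference of the genotype effect between fractions was detectable for these genes at this number of libraries.

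The genes also varied together. Across all 21 libraries Ezh2 and Suz12 had a Pearson r of 0.77, and of 0.71 after removal of the fraction means. Suz12 and Kdm6a had an r of 0.82, Asxl1 and Kdm6a of 0.61, Eed and Suz12 of -0.55, and Ezh2 and Dnmt3a of -0.45. Of 8773 other genes whose mean level reached 3 log2 CPM, those most like Ezh2 were Dut (r of 0.964) and Pole2 (0.948), which serve nucleotide supply and replication. C2cd5 (0.973), Mybl2 (0.960) and Maz (0.959) were most like Suz12, and Hnrnpc (0.959), Slc7a6os (0.952) and Cog8 (0.939) most like Eed. Igf1r (0.947), Ptpre (0.940) and Sik3 (0.932) were closest to Asxl1, and Tspan4 (0.902), Pkp4 (0.894) and Gaa (0.884) to Dnmt3a. For Kdm6a the closest gene was Kdm5c (0.884), another X-linked histone demethylase, and Fanca (0.874) was also among the closest. Tet2 and Setbp1 had looser neighbours, Prkab2 (0.841), Mapk6 (0.833) and Zswim8 (0.825) for Tet2 and Ganc (0.859), Btf3l4 (0.844) and AU020206 (0.841) for Setbp1. The points share mice, fractions and depth, so these values are descriptions.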

How the data were processed

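RNA of 21 libraries was sequenced as 100 bp paired-end reads from TruSeq Stranded mRNA libraries, trimmed with Trim Galore (0.6.5) and mapped to GRCm38 with STAR (2.5.3a) per the study's methods. The authors deposited raw counts per Ensembl gene, 1 file for each library, and the counter and its strand setting are not given in the sources used here. Of 45706 identifiers, 45143 matched a symbol (563 did not). Counts were filtered with filterByExpr (minimum count 10), scaled by TMM and tested with robust quasi-likelihood fits in edgeR (4.0.16, R 4.3.3) with 1 coefficient for each of 9 groups. Levels are given as log2 CPM (prior count 2), and per kilobase values use merged exon lengths of GENCODE vM21. Totals of 34992610 to 104509425 counts give small counting error, so precision is limited by the number of libraries. Floors (3 counts) cover counting error only.

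The 8 genes and all lists were chosen with earlier results of these data known. From each list, called genes with the 4 largest differences per comparison were named, and for each of the 8 the 3 genes with the highest Pearson r. Some genes that this rule names are not reported here. Alternatives were RLE factors, total counts alone, no filter, limma-voom (3.58.1), DESeq2 (1.42.0), fits of only the groups compared, both control genotypes together, a prior count of 0.5 for the levels, a replicate block and leaving out each library in turn. Leaving out the libraries with under 15000 genes or the BM libraries that stood apart was chosen after seeing the data. S3 libraries of different fractions with the same number come from the same mouse per the labels, and the deviations of same-numbered libraries from their group means correlated between -0.173 and 0.407. S3 and MxCre libraries share no number. The scripts were tested on simulated data.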

Additional observations from a re-analysis of the deposited data

How the results depend on the processing

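Over 50 differences of the 8 genes and 869 alternative values, 835 kept their direction, 34 reversed, 35 lost and 61 gained a call. Scaling by total counts alone reversed Asxl1 between S3 and MxCre spleens (0.093), Ezh2 (-0.66) and Eed (-0.27) in BM and Eed (-0.15), Setbp1 (-0.63) and Tet2 (-0.27) in spleen CD11b+ against LSK cells. It moved the median of all genes by 0.45, -0.82 and -0.75 in these 3 comparisons, so these reversals are not particular to the 8 genes. Against LSK cells, limma-voom reversed Ezh2 in the BM (-0.050) and Setbp1 in the spleen (-0.49), and the replicate block reversed Setbp1 in the spleen (-0.34). With both control genotypes together, S3 LSK values were 0.069 for Asxl1, 0.045 for Dnmt3a and 0.13 for Tet2, S3 BM values were -0.12 for Ezh2 and -0.23 for Suz12, and the S3 spleen value of Setbp1 was -1.06. Without the libraries with under 15000 genes, Ezh2 was -1.0 and Suz12 -0.17 between S3 and MxCre BM, Ezh2 -0.52 between the control genotypes in the BM, and Suz12 0.024 between BM CD11b+ and LSK cells. Without the BM libraries that stood apart, the S3 BM values were -0.43 for Ezh2 and -0.39 for Suz12, and Ezh2 was -0.52 between the control genotypes. The cause was not tested.

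How many of the 8 genes were called changed as well. Against LSK cells 5 were called in the BM and 5 in the spleen with total counts alone and with the replicate block, and 5 in the spleen with limma-voom and DESeq2. With total counts alone 12562 of all genes were called in the BM and 12568 in the spleen. For the other fits against LSK cells the count over all genes is not given here, so their numbers are not read as results about the 8 genes. The block added Kdm6a in the spleen (-0.55, adjusted p = 0.0486) to the calls given in the text and ended the call of Ezh2 between spleen and BM (-1.07, adjusted p = 0.0880). Without the libraries of under 15000 genes 1 was called in the BM (Dnmt3a, -1.47, adjusted p = 0.000683) and 3 between spleen and BM. Without the BM libraries that stood apart 5 were called in the BM, 6 in the spleen, 4 between spleen and BM, 2 between S3 and MxCre spleens and 1 between the control genotypes of the spleen. Between spleen and BM 0 were called with limma-voom or the groups compared alone and 2 with DESeq2. Between the control genotypes of the spleen DESeq2 and limma-voom called 1. With the groups compared alone, LSK fits called 1 (S3 against MxCre), 2 (S3 against Ptpn11D61Y/+) and 2 (control genotypes). When 1 library was left out, the number called was 1 to 5 for BM and 1 to 5 for spleen against LSK cells, 0 to 3 between spleen and BM, 0 to 1 between S3 and MxCre BM, 0 to 3 between the control genotypes of the BM and 0 to 1 between those of the spleen.

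Counts over all genes changed far more in the genotype comparisons. For S3 against MxCre mice in LSK, BM and spleen, limma-voom called 21, 23 and 1362 genes and DESeq2 128, 965 and 3409. For S3 against Ptpn11D61Y/+ mice they called 173, 3 and 12, and 248, 256 and 385, and for the control genotypes 5, 7 and 1775, and 103, 1864 and 3381. For the interactions of spleen and BM they called 63 and 4, and 827 and 141, and DESeq2 called 4253 between spleen and BM. With total counts alone 1707 were called between the control genotypes of the spleen and 14 for the spleen interaction. Without the filter, 1 was called between S3 and MxCre BM, 495 between S3 and MxCre spleens, 11 between S3 and Ptpn11D61Y/+ spleens and 10 for the spleen interaction. The groups compared alone gave 4536, 5158 and 2601 in the 3 LSK comparisons, 14 and 0 for S3 spleens against MxCre and Ptpn11D61Y/+, 889 between spleen and BM and 74 for the spleen interaction. Both controls together gave 1, 5 and 0 in LSK, BM and spleen. The block gave 7 and 531 for the control genotypes in LSK and spleen and 0 for the spleen interaction. Without the libraries of under 15000 genes the counts were 1 and 1596 for S3 against MxCre in LSK and spleen, 54, 2 and 43 for S3 against Ptpn11D61Y/+, 20 and 2125 for the control genotypes in LSK and spleen, 4311 between spleen and BM and 274 for the spleen interaction. Without the BM libraries that stood apart they were 13 and 3117, 84, 24 and 164, 55 and 3084, 5322 and 406.

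When 1 library was left out, genes called ranged from 0 to 3 (LSK), 0 to 1983 (BM) and 266 to 860 (spleen) for S3 against MxCre, 0 to 42, 0 to 2 and 0 to 46 for S3 against Ptpn11D61Y/+, 0 to 8, 0 to 2893 and 0 to 647 for the control genotypes, 1375 to 4227 between spleen and BM, and 0 to 225 and 0 to 470 for the interactions. The differences that reversed ranged from -0.31 to 0.21 (Tet2) and -0.34 to 0.16 (Setbp1) between S3 and MxCre LSK, -0.79 to 2.30 (Ezh2) and -0.37 to 1.51 (Suz12) in the BM, -1.04 to 0.24 (Asxl1) and -0.17 to 0.49 (Kdm6a) in the spleen, -0.52 to 2.57 for Ezh2 between the control genotypes of the BM, -0.53 to 0.50 for Ezh2 between BM CD11b+ and LSK cells, and -2.30 to 0.52 for Setbp1 between spleen CD11b+ and LSK cells. Leaving 1 library of a control group assumes that it varies like the other groups. Of 144 alternative group levels 17 moved by more than 1 SD, all with RLE factors.

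Counting error is a limit only for Setbp1, whose counts fall below 15 in 5 CD11b+ libraries. Totals do not order these counts: spleen MxCre replicate 1 held 0 Setbp1 counts of 52965938, and spleen Ptpn11D61Y/+ replicate 1 held 411 of 56121332. For the other genes the limit is the number of libraries, 2 or 3 a group, together with uneven complexity and composition of the CD11b+ libraries.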
